A study of Mus musculus with 48 samples.

Results

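Organic ion and drug transporters move bile acids, hormones, carnitine, drugs and their conjugates across cell membranes. The set described here holds the genes of 4 transporter families on the array: the organic anion transporting polypeptides (Slco), the organic cation, anion and carnitine carriers (Slc22), the multidrug and toxin extruders (Slc47) and the multidrug resistance proteins (Abcc). Members were chosen by gene symbol alone, as every non-control probe named Slco, Slc22a, Slc47a or Abcc followed by a digit. Slco1a1 and Slco1b2 were left out of the set. Each gene was read from its brightest probe on average. This gave 51 genes of the 37074 gene names on the array: 13 Slco, 26 Slc22, 2 Slc47 and 10 Abcc genes.

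Liver RNA came from male mice of 8 groups of 6, on 48 one-colour arrays. The control genotype, labelled LWT, is p110αhep+/+, floxed-p110α littermates without Cre. The knockout genotype, labelled LKO, is p110αhep-/-, floxed mice carrying albumin-Cre, so that the catalytic subunit p110α (gene Pik3ca) of the insulin-responsive PI3K is lost from hepatocytes while other liver cells keep it. Only LKO mice carry the Cre transgene, and both genotypes carry the floxed alleles. From 12 weeks of age, mice of either genotype ate a control diet (CTRL) or a high-fat diet (HFD) with 60% of calories from fat for 12 weeks. They were then fed ad libitum (FED) or fasted for 24 h (FASTED), and all were killed at ZT16, the dark phase. All groups are named in this order: genotype, diet, state.

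In hepatocytes, Slco proteins and most Slc22 carriers take substrates up from blood, Abcc2 and Slc47a1 pass substrates into bile, and Abcc3 returns conjugates to blood. Carnitine carriers of the Slc22 family supply the cofactor that brings long-chain fatty acids into mitochondria. Several of these genes are known targets of nuclear receptors such as PPARα, CAR and PXR.

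On each array, 50.1% to 57.4% of probes were well above background by the scanner software's test, and 30793 of 56605 probes were kept because at least 5 of 6 arrays of a group passed it. Of the 51 transporters, 36 were kept, 29 of them well above background on all 48 arrays. The other 7 kept members, among them Slc22a27, Slc22a29 and Slc22a26, passed in only some arrays, so a member kept only through its highest group had to differ between groups. The array probe for Pik3ca was not lower in LKO mice, with group means of 12.74 to 13.32 in LWT and 13.23 to 13.50 in LKO. It was higher in LKO mice fed on CTRL diet (log2 0.39, limma adjusted p = 0.000403), fed on HFD (0.58, 2.73e-07) and fasted on HFD (0.25, 0.0172), each under 1.5-fold. The probe cannot show whether the floxed exons were lost, so genotypes stand as labelled. Of the hepatocyte markers, Apoa1, Ttr, Cps1, Serpina1a and Tat were all well above background on all 48 arrays. By the thresholds given below, Cps1 was higher in LKO mice in every genotype comparison but the fasted CTRL one, and lower with HFD in fed LWT mice. Tat was higher with fasting except in LKO mice on HFD, and higher in fed LKO than in fed LWT mice on CTRL diet. Array LKO_HFD_FED replicate 3 had the lowest array weight, 0.35, and lay nearer to the mean of LKO_CTRL_FED than to its own group. LWT_CTRL_FED replicate 2 likewise lay nearer to LKO_CTRL_FED.

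Of the 18 members that changed with fasting, diet or genotype, 5 lie in 1 run of Slc22 genes on chromosome 19. The share of all genes that changed with any of these is not given here. On the mm9 build of the array, the probes are at chr19:7856477-7856536 (Slc22a26), chr19:7938881-7938940 (Slc22a27), chr19:8137911-8137970 (Slc22a28), chr19:8234836-8234895 (Slc22a29) and chr19:8418998-8419057 (Slc22a30). Exon or UTR positions of the probes were not assigned here. The sequences below are the 250 bases before the start of 4 of these genes, from RefSeq on GRCm38.p6, all on the minus strand and written 5′ to 3′. They are shown because Slc22a27 and Slc22a29 rose with the diet and Slc22a28 and Slc22a30 fell with fasting. Capitals mark matches to the motifs listed below. Their places are chr19:7966028-7966277 for Slc22a27, chr19:8218901-8219150 for Slc22a29, chr19:8131983-8132232 for Slc22a28 and chr19:8405106-8405355 for Slc22a30.
Slc22a27: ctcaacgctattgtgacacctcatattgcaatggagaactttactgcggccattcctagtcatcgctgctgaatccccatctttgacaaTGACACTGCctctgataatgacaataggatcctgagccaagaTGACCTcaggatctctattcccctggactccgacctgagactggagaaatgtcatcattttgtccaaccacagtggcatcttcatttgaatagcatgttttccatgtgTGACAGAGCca
Slc22a29: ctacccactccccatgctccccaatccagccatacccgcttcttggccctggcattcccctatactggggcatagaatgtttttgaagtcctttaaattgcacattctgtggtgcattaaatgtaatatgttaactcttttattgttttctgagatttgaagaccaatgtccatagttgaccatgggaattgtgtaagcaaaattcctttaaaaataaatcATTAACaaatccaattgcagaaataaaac
Slc22a28: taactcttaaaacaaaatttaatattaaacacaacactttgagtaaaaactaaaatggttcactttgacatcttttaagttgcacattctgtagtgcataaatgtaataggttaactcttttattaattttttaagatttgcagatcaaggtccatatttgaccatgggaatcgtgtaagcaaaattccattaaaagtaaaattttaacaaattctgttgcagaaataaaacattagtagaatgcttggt
Slc22a30: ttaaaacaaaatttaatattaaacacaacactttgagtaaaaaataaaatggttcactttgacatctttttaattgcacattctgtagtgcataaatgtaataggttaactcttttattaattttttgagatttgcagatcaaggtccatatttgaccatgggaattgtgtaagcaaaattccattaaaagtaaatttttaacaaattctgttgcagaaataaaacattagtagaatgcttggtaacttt

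The Slc22a28 and Slc22a30 windows were identical at 238 of 244 aligned bases (97.5%, at a shift of 6 bases, without gaps). The Slc22a29 window was 63.4% identical to that of Slc22a28 and 65.9% to that of Slc22a30. The windows of Slc22a27 and Slc22a29 were 32% identical, within the 24.7% to 37.3% seen between windows of the chromosome 19 genes and those of Slc22a4 and Slc22a5 or between these last 2.

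The array cannot fully separate Slc22a28 from Slc22a30, since the annotations of their probes list 4 transcripts in common. The 60-base probes, shown because the near-copies are read through them, come from different places in the transcripts and share no run over 5 bases.
Slc22a28 probe: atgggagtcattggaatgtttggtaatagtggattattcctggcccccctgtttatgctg
Slc22a30 probe: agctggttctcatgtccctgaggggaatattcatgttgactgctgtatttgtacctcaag
Values of these 2 genes are therefore given as 2 readings that may share RNA. On chromosome 11, the probes of the carnitine carriers lie at chr11:53678030-53678045 (Slc22a5, as the annotation gives it), chr11:53764508-53764567 (Slc22a21) and chr11:53796841-53796900 (Slc22a4). The Slc22a21 probe shares a run of 33 bases with a second, not brightest, probe of Slc22a5, and lists 1 transcript that the brightest Slc22a5 probe lists too. How much Slc22a5 RNA adds to the Slc22a21 reading was not tested.

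The motifs below were searched on both strands of all 32851 RefSeq promoters, each of 250 bases before and 50 after a start, of which 47 belong to 40 of the members and to 13 of the 18 that changed. The nuclear receptor site AGGTCA was in 6 of the 47 and in 16.3% of all promoters. Its tandem forms, DR1 (AGGTCANAGGTCA, bound by PPAR) and DR4 (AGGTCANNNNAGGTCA, bound by CAR and PXR), were in 0 of the 47, against 0.0396% and 0.0152% of all. The NRF2 core TGACNNNGC was in 10 of the 47, including that of Slc22a27, and in 12.4% of all. The AhR core GCGTG was in 9, including those of Slc22a4 and Slc22a5, and in 32.4% of all. The HNF1 site GTTAAT was in 3, those of Slc22a6, Slc22a8 and Slc22a29, and in 7.1% of all. DR1 and DR4 contain AGGTCA, so those matches overlap. With so few members per motif these are descriptions only.

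A member was counted as changed in a comparison when the limma adjusted p was at most 0.05 and the fold change was over 1.5. Fold changes are weighted by array, so they can differ slightly from the difference of 2 group means. Fasting changed 11 of the 36 measured members in at least 1 of the 4 comparisons of fasted with fed mice (30.6%, against 12.6% of all 20486 genes tested), and 9 of the 29 seen on all arrays. For this last count, and the like counts for diet and genotype, the share over all genes seen on all arrays is not given here. In LWT mice on CTRL diet, 3 members rose and 1 fell, where 2.93% of all genes rose and 2.52% fell. In LWT mice on HFD, 3 rose and 2 fell (2.25% and 2.47% of all genes). In LKO mice on CTRL diet, 4 rose and 3 fell (3.65% and 3.43%). In LKO mice on HFD, 0 rose and 6 fell past both limma thresholds (2.75% and 3.15%). Whatever the fold, 20 of the 36 passed the adjusted p there (28.6% of all genes), and 11 had a positive change at an unadjusted p under 0.05. The median change over the members was between 0.02 and 0.07 on the log2 scale, against 0 over all genes.

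High-fat feeding changed 11 of the 36 members in at least 1 of 4 comparisons (30.6%, against 7.34% of all genes), and 8 of the 29 seen on all arrays. In fed LWT mice 6 rose and 2 fell, where 2.63% of all genes rose and 1.08% fell. In fasted LWT mice 2 rose and 1 fell (1.82% and 0.996%). In fed LKO mice 7 rose and 1 fell (1.3% and 1.04%), and in fasted LKO mice 3 rose and 2 fell (0.927% and 0.967%). The median change of the members was 0.01 to 0.09.

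Genotype changed 16 of the 36 members in at least 1 of 4 comparisons (44.4%, against 10.6% of all genes), and 13 of the 29 seen on all arrays. On CTRL diet, LKO mice had 2 members higher and 4 lower in the fed state (1.53% and 2.2% of all genes) and 3 higher and 4 lower after fasting (1.33% and 1.9%). On HFD they had 3 higher and 2 lower in the fed state (2.21% and 4.02%) and 5 higher and 4 lower after fasting (2.33% and 4.23%). The median change was 0.01 to 0.13.

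Differences between these responses were tested directly as interactions, and 8 of the 36 members had at least 1 (22.2%, against 6.95% of all genes). The response to diet differed by genotype for 0 members in the fed state (limma, with 9 at an unadjusted p under 0.05, and 1.4% of all genes called) and for 2 after fasting (1.88% of all genes), Slc22a27 and Slc22a29, whose values there lie at the detection floor. The other 6 members were well above background on all 48 arrays. Between genotypes, the response to fasting differed for 5 members on CTRL diet (1.32%) and for 1 on HFD (1.4%). Between diets, it differed for 1 member in LWT mice (0.888%) and for 4 in LKO mice (2.9%). The 12 comparisons of 2 groups share their groups, so a high or low group enters several of them.

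**Figure D1:**
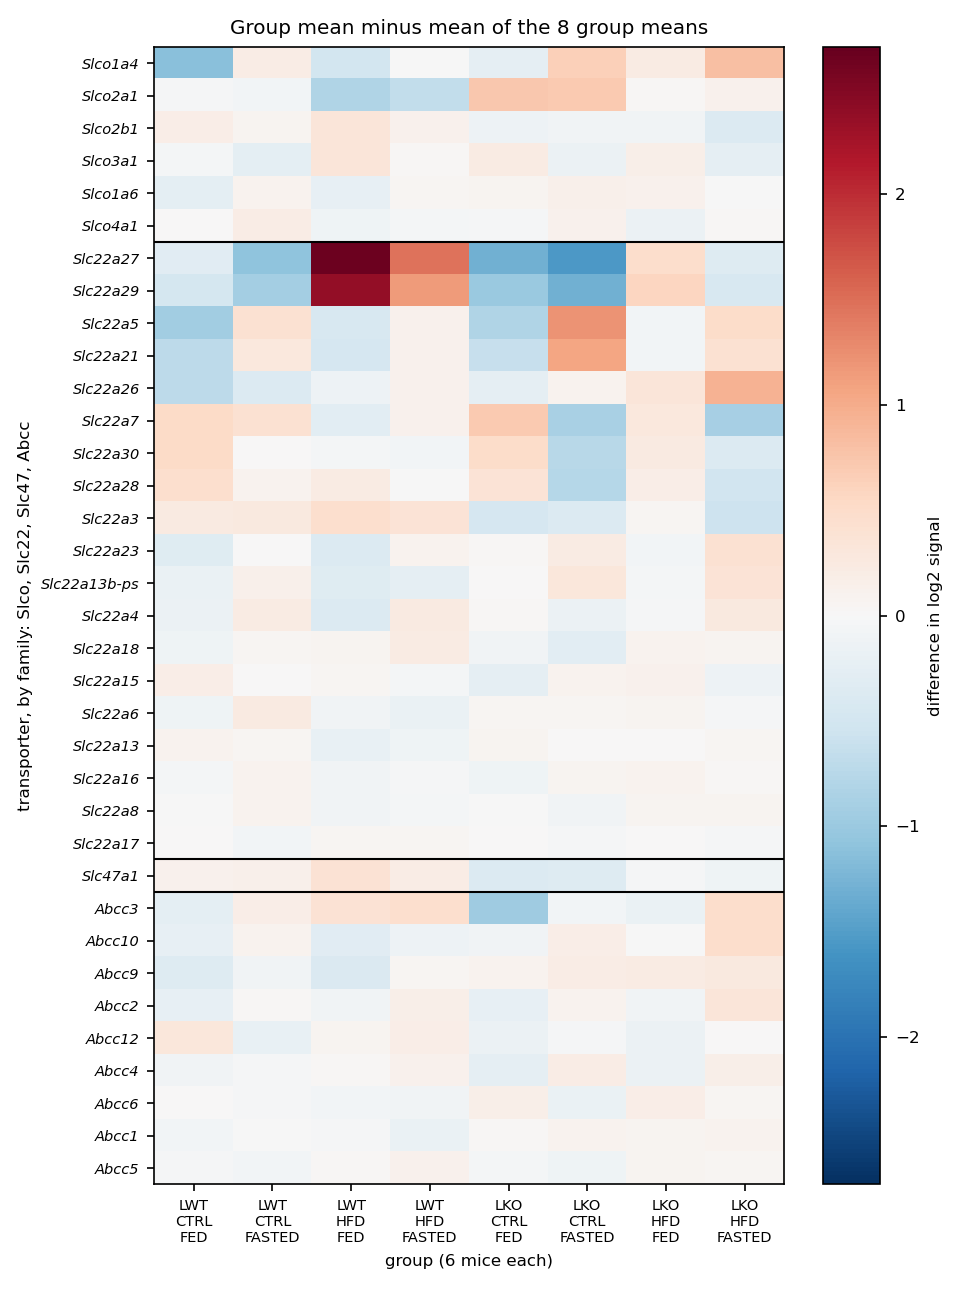
Each cell is a group's mean log2 signal minus the mean of the 8 group means, for 35 of the 36 measured transporters (rows, by family, the most variable first) in the 8 groups of 6 mice (columns). Slc22a27 and Slc22a29 span the widest range, 4.19 and 3.66 on the log2 scale, with LWT_HFD_FED highest and LKO_CTRL_FASTED lowest.

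Of the carnitine carriers, Slc22a5 and Slc22a21 rose with fasting on CTRL diet, and more so in LKO mice. Slc22a5 (OCTN2), the main carnitine importer of the plasma membrane, had log2 signals of 10.22, 10.23 and 10.54 (lowest, median and highest of 6) in LWT_CTRL_FED and of 11.52, 11.64 and 11.95 in LWT_CTRL_FASTED. In LKO_CTRL_FED they were 10.18, 10.45 and 10.81, and in LKO_CTRL_FASTED 12.20, 12.50 and 12.81. Fasted and fed mice did not overlap in either genotype, and every fasted LKO mouse was above every fasted LWT mouse. Fasting raised Slc22a5 by 1.35 ± 0.12 (log2, SE, 2.55-fold, adjusted p = 6.46e-12) in LWT and by 2.07 ± 0.12 (4.21-fold, adjusted p = 3.07e-17) in LKO mice.

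On HFD the fasting response of Slc22a5 was small in both genotypes. LWT mice went from a mean of 10.83 ± 0.15 (SD, n = 6) to 11.39 ± 0.22, a change of 0.59 ± 0.12 (SE, adjusted p = 0.00011), and LKO mice from 11.20 ± 0.29 to 11.77 ± 0.40, a change of 0.51 ± 0.13 (adjusted p = 0.00381) that missed the fold threshold. The LWT call sat on that threshold, and leaving out any 1 of 6 mice (fed replicates 1, 2 and 6 and fasted replicates 3, 4 and 5) ended it, with values of 0.54 to 0.58. The diets differed in this response by -0.76 ± 0.17 in LWT (adjusted p = 0.00836) and by -1.57 ± 0.18 in LKO mice (adjusted p = 6.96e-08). The genotypes differed by 0.72 ± 0.17 on CTRL diet (adjusted p = 0.011). In washing batches 1 and 2 taken alone this was 0.79 and 0.72 (limma adjusted p = 0.0582 and 0.306), called in neither. The LWT difference between diets was -0.77 and -0.81 there (adjusted p = 0.211 and 0.15), also called in neither. The LKO difference between diets, -1.46 and -1.79, was called in both. Of 16 processing alternatives, 4 lost the genotype difference and 3 the LWT difference between diets. HFD moved Slc22a5 in opposite directions in LKO mice, up by 0.79 ± 0.13 in the fed state (adjusted p = 2.98e-05) and down by 0.78 ± 0.13 after fasting (-0.78, adjusted p = 4.02e-05). Lowest, median and highest signals on HFD were 10.66, 10.83 and 11.05 in LWT_HFD_FED, 11.06, 11.40 and 11.62 in LWT_HFD_FASTED, 10.73, 11.18 and 11.63 in LKO_HFD_FED and 11.18, 11.78 and 12.30 in LKO_HFD_FASTED, so fed and fasted mice overlapped in LKO and lay next to each other in LWT. Fasted LKO mice exceeded fasted LWT mice by 0.86 ± 0.12 on CTRL diet (adjusted p = 5.69e-07).

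Slc22a21 (OCTN3), a carnitine carrier next to Slc22a5, followed the same course at a lower signal. Its group means were 6.96 ± 0.09 (SD) in LWT_CTRL_FED, 7.94 ± 0.09 in LWT_CTRL_FASTED, 7.04 ± 0.17 in LKO_CTRL_FED and 8.72 ± 0.25 in LKO_CTRL_FASTED, with no overlap between fasted and fed mice. Fasting raised it by 0.97 ± 0.09 (SE, adjusted p = 4.01e-11) in LWT and by 1.76 ± 0.09 (3.4-fold, adjusted p = 1.22e-18) in LKO mice, and the genotypes differed by 0.79 ± 0.13 (adjusted p = 0.00033). On HFD its signals were 7.10, 7.13 and 7.51 in LWT_HFD_FED, 7.55, 7.83 and 7.89 in LWT_HFD_FASTED, 7.23, 7.6 and 7.86 in LKO_HFD_FED and 7.66, 8.09 and 8.47 in LKO_HFD_FASTED. The change there was 0.59 ± 0.09 in LWT (adjusted p = 1.6e-06), a call that ended without any 1 of 7 mice (values 0.56 to 0.58; fed replicates 1, 2 and 6 and fasted replicates 3, 4, 5 and 6). In LKO mice the diets differed in the fasting response by -1.34 ± 0.14 (adjusted p = 1.08e-08). Slc22a21 was raised by HFD in fed LKO mice (0.62 ± 0.10, adjusted p = 2.03e-05), where leaving out LKO_CTRL_FED replicate 3 (0.55) or LKO_HFD_FED replicate 5 (0.56) ended the call. It was lower on HFD in fasted LKO mice (-0.72 ± 0.10, adjusted p = 2.29e-06) and higher in LKO than in LWT mice after fasting on CTRL diet (0.84 ± 0.09, adjusted p = 2.97e-09). Its reading may include Slc22a5 RNA, as the probes show.

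Slc22a4 (OCTN1), beside them on the chromosome, carries ergothioneine. Fasting raised it in LWT mice on HFD, from 6.76 ± 0.15 (SD) to 7.38 ± 0.11 without overlap (0.64 ± 0.09 SE, adjusted p = 6.3e-07). On CTRL diet the change was 0.39 ± 0.09 in LWT (adjusted p = 0.00147) and -0.16 ± 0.10 in LKO mice (adjusted p = 0.218). The 250 bases before the Slc22a5 start, chr11:53891704-53891953 of GRCm38.p6 on the minus strand, are shown because this gene had the largest fasting response of the set. They hold matches to GCGTG alone among the motifs searched.
Slc22a5: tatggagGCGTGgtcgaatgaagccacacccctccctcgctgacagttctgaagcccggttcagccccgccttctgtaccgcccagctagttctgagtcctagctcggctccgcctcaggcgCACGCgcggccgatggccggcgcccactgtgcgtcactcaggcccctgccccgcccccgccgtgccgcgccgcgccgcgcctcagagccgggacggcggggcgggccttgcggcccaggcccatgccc

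**Figure D2:**
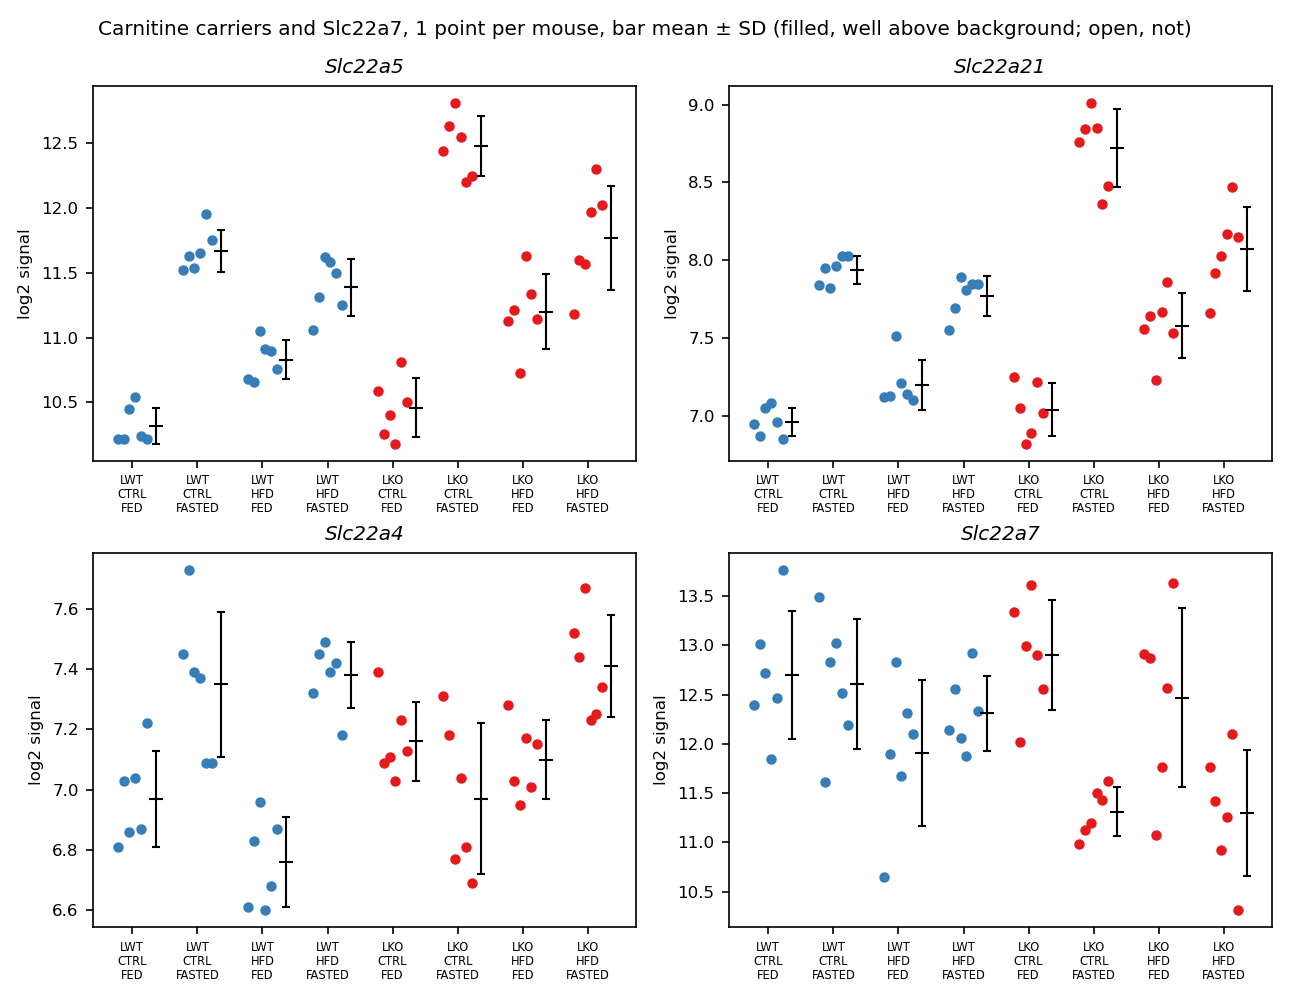
Log2 signal of Slc22a5, Slc22a21, Slc22a4 and Slc22a7 (vertical axes) in each mouse of the 8 groups (horizontal axis, LWT blue, LKO red), with the group mean and SD as a black bar. LKO_CTRL_FASTED is the highest group for Slc22a5 and Slc22a21, at means of 12.48 and 8.72, and it is among the lowest for Slc22a7, at 11.31.

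Slc22a7 (OAT2), a hepatic carrier of organic anions and nucleotides, fell with fasting in LKO mice on either diet and was not called in LWT mice. In LKO_CTRL_FED the lowest, median and highest log2 signals were 12.02, 12.95 and 13.61, and in LKO_CTRL_FASTED 10.98, 11.32 and 11.62. These 2 groups did not overlap. In LWT_CTRL_FED the values were 11.85, 12.59 and 13.77 and in LWT_CTRL_FASTED 11.61, 12.67 and 13.49, which overlapped almost wholly. On HFD the values were 10.65, 12.00 and 12.83 in LWT_HFD_FED, 11.88, 12.24 and 12.92 in LWT_HFD_FASTED, 11.08, 12.72 and 13.63 in LKO_HFD_FED and 10.31, 11.34 and 12.10 in LKO_HFD_FASTED, with overlap in either genotype. Fasting lowered Slc22a7 in LKO mice by 1.68 ± 0.31 (log2 -1.68, SE, 3.21-fold, adjusted p = 2.76e-05) on CTRL diet and by 1.36 ± 0.34 (-1.36, 2.56-fold, adjusted p = 0.00206) on HFD. The corresponding LWT values were -0.09 ± 0.30 (adjusted p = 0.855) and 0.36 ± 0.29 (adjusted p = 0.398).

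The genotypes differed in this response by -1.59 ± 0.43 on CTRL diet (adjusted p = 0.0272) and by -1.71 ± 0.45 on HFD (adjusted p = 0.0223). Slc22a7 varied widely within groups, with SDs of 0.25 to 0.91 over the groups. The call on CTRL diet ended without any 1 of 5 mice (LWT_CTRL_FED replicates 1, 4 and 5, LWT_CTRL_FASTED replicate 4 and LKO_CTRL_FASTED replicate 1), at -1.43 to -1.53, and the call on HFD ended without LKO_HFD_FED replicate 2, at -1.63. In washing batches 1 and 2 taken alone the difference on CTRL diet was -2.60 and -0.95 (limma adjusted p = 0.0118 and 0.664). On HFD it was -1.75 and -1.63 (adjusted p = 0.113 and 0.327), called in neither. Of 16 processing alternatives, 3 lost the call on CTRL diet and 6 the call on HFD. Fasted LKO mice were below fasted LWT mice by 1.35 ± 0.30 (-1.35, adjusted p = 0.000733) on CTRL diet and by 0.97 ± 0.32 (-0.97, adjusted p = 0.0161) on HFD. HFD lowered it in fed LWT mice (-0.80 ± 0.30, adjusted p = 0.0453), a call lost when any 1 of 7 mice was left out (LWT_HFD_FED replicates 1, 2, 4 and 6 and LWT_CTRL_FED replicates 2, 3 and 6), at -0.55 to -0.83.

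Among the chromosome 19 genes, Slc22a27 and Slc22a29, organic anion transporter relatives, rose strongly on HFD and were lower in LKO than in LWT mice on that diet. The lowest, median and highest log2 signals of Slc22a27 were 5.80, 6.52 and 7.09 in LWT_CTRL_FED and 8.76, 9.40 and 9.75 in LWT_HFD_FED. In LKO mice they were 5.05, 5.33 and 6.14 in LKO_CTRL_FED and 6.13, 7.41 and 8.02 in LKO_HFD_FED. The LWT groups were far apart, while 1 LKO mouse on CTRL diet reached the lowest on HFD. For Slc22a29 the same 4 groups had medians of 5.90, 8.77, 5.41 and 7.26, and neither genotype overlapped between diets.

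Fasted mice had Slc22a27 signals of 5.23, 5.58 and 6.07 in LWT_CTRL_FASTED, 7.28, 8.20 and 8.88 in LWT_HFD_FASTED, 4.86, 5.11 and 5.73 in LKO_CTRL_FASTED and 5.70, 6.47 and 7.16 in LKO_HFD_FASTED. For Slc22a29 they were 5.11, 5.46 and 5.80 in LWT_CTRL_FASTED, 6.62, 7.51 and 8.27 in LWT_HFD_FASTED, 4.89, 5.14 and 5.15 in LKO_CTRL_FASTED and 5.38, 5.97 and 6.76 in LKO_HFD_FASTED. Fasted LWT mice on HFD were above every other fasted group for Slc22a27, and for Slc22a29 they overlapped with LKO_HFD_FASTED alone. In fed LWT mice HFD raised Slc22a27 by 2.97 ± 0.25 (log2, SE, 7.84-fold, adjusted p = 8.17e-12) and Slc22a29 by 2.86 ± 0.24 (7.26-fold, adjusted p = 8.17e-12). The LWT_CTRL_FED arrays above background were 5 of 6 for Slc22a27 and 4 of 6 for Slc22a29. After fasting the LWT changes were 2.55 ± 0.25 (5.85-fold, adjusted p = 2.04e-09) and 2.08 ± 0.24 (4.23-fold, adjusted p = 1.08e-07), against a CTRL group with 2 of 6 arrays above background for each gene. In fed LKO mice they were 1.94 ± 0.27 (3.83-fold, adjusted p = 2.24e-06) and 1.73 ± 0.26 (3.32-fold, adjusted p = 7.61e-06), against LKO_CTRL_FED with 1 of 6 arrays above background for each gene. Folds against such groups are of values mostly at the floor and may understate the change. In LKO_CTRL_FASTED neither probe was well above background on any array. Against that group, fasted LKO mice on HFD were at least 1.92-fold higher for Slc22a27 (adjusted p = 0.0026) and at least 1.48-fold higher for Slc22a29 (adjusted p = 0.0377), taking the higher of each array's detection floor and the probe's own value. The Slc22a29 call here ended without any 1 of 9 of the 12 mice, at 0.65 to 0.83 on the log2 scale against 0.81: LKO_CTRL_FASTED replicates 1 to 5 and LKO_HFD_FASTED replicates 3 to 6.

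Both genes were lower in LKO than in LWT mice on HFD. The fed difference was -2.05 ± 0.26 for Slc22a27 (4.14-fold, adjusted p = 5.04e-08) and -1.67 ± 0.25 for Slc22a29 (3.18-fold, adjusted p = 1.43e-06), and no fed LKO mouse reached a fed LWT mouse. After fasting the differences were -1.84 ± 0.27 (3.57-fold, adjusted p = 8.77e-07) and -1.63 ± 0.26 (3.1-fold, adjusted p = 3.31e-06), with overlap for Slc22a29. On CTRL diet, fed LKO mice were lower in Slc22a27 (-1.02 ± 0.26, adjusted p = 0.0041), with 1 of 6 LKO and 5 of 6 LWT arrays above background, so that the size may be understated, and the Slc22a29 value was -0.54 ± 0.25 (adjusted p = 0.124). The fitted difference between genotypes in the diet response of fasted mice was -1.36 ± 0.37 for Slc22a27 and -1.27 ± 0.35 for Slc22a29. It rests on LKO_CTRL_FASTED, with 0 of 6 arrays above background, and on LWT_CTRL_FASTED, with 2 of 6, so the LKO response is a lower bound and a difference of responses cannot be read from it. Leaving out LKO_HFD_FASTED replicate 1 (-1.23 and -1.16) or 2 (-1.17 and -1.11) or LWT_HFD_FASTED replicate 4 (-1.16 and -1.07), and for Slc22a29 LWT_CTRL_FASTED replicate 5 (-1.20) or LKO_HFD_FASTED replicate 3 (-1.26), also took the value past an adjusted p of 0.05. In the fed state, where LKO_CTRL_FED had 1 of 6 arrays above background, the fitted differences were -1.03 ± 0.37 (adjusted p = 0.118) and -1.13 ± 0.35 (adjusted p = 0.0727).

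Fasting lowered both genes on HFD, Slc22a27 by 1.26 ± 0.25 in LWT (-1.26, adjusted p = 0.000107) and 1.05 ± 0.28 in LKO mice (-1.05, adjusted p = 0.00469), and Slc22a29 by 1.26 ± 0.24 (-1.26, adjusted p = 5.84e-05) and 1.22 ± 0.27 (-1.22, adjusted p = 0.000644). It lowered Slc22a27 on CTRL diet in LWT mice too (-0.83 ± 0.25, adjusted p = 0.0102), where 2 of 6 fasted arrays were above background. The LWT changes on HFD were -1.79 and -0.67 for Slc22a27 and -1.95 and -0.57 for Slc22a29 in washing batches 1 and 2 taken alone. A second Slc22a27 probe gave a call of the same sign in all 10 comparisons in which the main probe did. That probe shares a run of 15 bases with the Slc22a29 probe, and what this adds to its reading was not tested. Fold sizes near background depended on the processing. With the background-subtracted signal, the HFD change of Slc22a27 in fed LKO mice was 4.20 rather than 1.94, and with normexp correction it was 1.45. The background-subtracted signal was also scaled to its 75th percentile, without quantile normalization or batch correction, so the background step was not isolated.

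Of the fat cell markers, Cfd was called in the diet comparisons and in the genotype comparisons on HFD in which these genes were called. Of 4 markers listed, Adipoq was not kept, Lep and Retn were not called in any comparison of 2 groups, and Cfd, an adipokine, was higher on HFD in all 4 diet comparisons and lower in LKO mice in all 4 genotype comparisons. The summed log2 level of the 3 kept markers was 9.20 to 13.39 in LWT_CTRL_FED, 9.94 to 12.36 in LWT_CTRL_FASTED, 13.11 to 13.60 in LWT_HFD_FED and 12.50 to 15.18 in LWT_HFD_FASTED. In LKO mice it was 7.63 to 8.30, 7.87 to 8.19, 8.35 to 11.08 and 8.20 to 11.02 in the same order. Within LWT mice on HFD the mean summed level was 13.31 fed and 13.85 fasted, with overlapping ranges. Cfd was the brightest of the 3, at a mean log2 signal of 9.9 against 7.28 for Lep and 5.71 for Retn. The part of Cfd in the result was not tested. In bulk liver, fewer cells of a type and less RNA per cell cannot be told apart.

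Slc22a28 and Slc22a30, the near-copies, fell with fasting in LKO mice. Slc22a28 had log2 signals of 11.32, 11.41 and 11.47 in LKO_CTRL_FED and of 10.06, 10.28 and 10.40 in LKO_CTRL_FASTED, and Slc22a30 had 13.67, 13.85 and 13.98 and then 12.51, 12.63 and 12.72 (lowest, median and highest). Fed and fasted mice did not overlap for either. The falls were 1.1 ± 0.10 for Slc22a28 (log2 -1.1, 2.15-fold, adjusted p = 1.68e-12) and 1.21 ± 0.10 for Slc22a30 (-1.21, 2.31-fold, adjusted p = 4e-13). All 3 further kept probes of these genes gave the same call, at -1.08 to -1.20, though the further Slc22a28 probe shares a run of 23 bases with a further Slc22a30 probe.

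In LWT mice Slc22a28 had 11.20, 11.49 and 11.68 in LWT_CTRL_FED and 10.69, 11.17 and 11.41 in LWT_CTRL_FASTED, and Slc22a30 had 13.64, 13.90 and 14.17 in LWT_CTRL_FED and 13.02, 13.38 and 13.76 in LWT_CTRL_FASTED, with overlap for both. In LWT mice on CTRL diet the fasting values were under the fold threshold, for example -0.51 ± 0.10 for Slc22a30 (adjusted p = 5.59e-05), and the genotypes differed in the response by -0.77 ± 0.13 for Slc22a28 (adjusted p = 0.000525) and -0.69 ± 0.14 for Slc22a30 (adjusted p = 0.00264). On HFD the LKO falls were 0.68 ± 0.10 for Slc22a28 (-0.68, adjusted p = 3.42e-06) and 0.59 ± 0.11 for Slc22a30 (-0.59, adjusted p = 5.04e-05). The latter was lost when any 1 of 6 mice was left out (LKO_HFD_FED replicates 1 to 3 and LKO_HFD_FASTED replicates 3 to 5), at -0.52 to -0.58. For Slc22a30 the diets differed in the LKO response by 0.62 ± 0.15 (adjusted p = 0.00513), which missed the fold threshold without LKO_HFD_FED replicate 4 (0.53) or LKO_HFD_FASTED replicate 1 (0.58) or 2 (0.53). After fasting on CTRL diet, LKO mice were below LWT mice by 0.86 ± 0.09 (-0.86, adjusted p = 2.72e-09) and 0.74 ± 0.10 (-0.74, adjusted p = 1.38e-07).

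Slc22a26 stood lower on the array, above background on 41 of 48 arrays, and was highest in LKO_HFD_FASTED, at 6.28, 7.15 and 8.36. It was raised by HFD in fed LWT mice (0.63 ± 0.18, adjusted p = 0.0084, with 2 of 6 arrays of LWT_CTRL_FED above background) and fasted LKO mice (0.85 ± 0.19, adjusted p = 0.00245), and was higher in LKO than in LWT mice when fasted on HFD (0.85 ± 0.19, adjusted p = 0.00057). All 3 pairs of groups overlapped. The first call was lost without LWT_CTRL_FED replicate 6 (0.58). A second probe gave the same signs, at 0.45 to 0.58, all under the fold threshold. The family's renal anion carriers Slc22a6 and Slc22a8 lie on the same chromosome and passed no comparison at an adjusted p of 0.05.

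**Figure D3:**
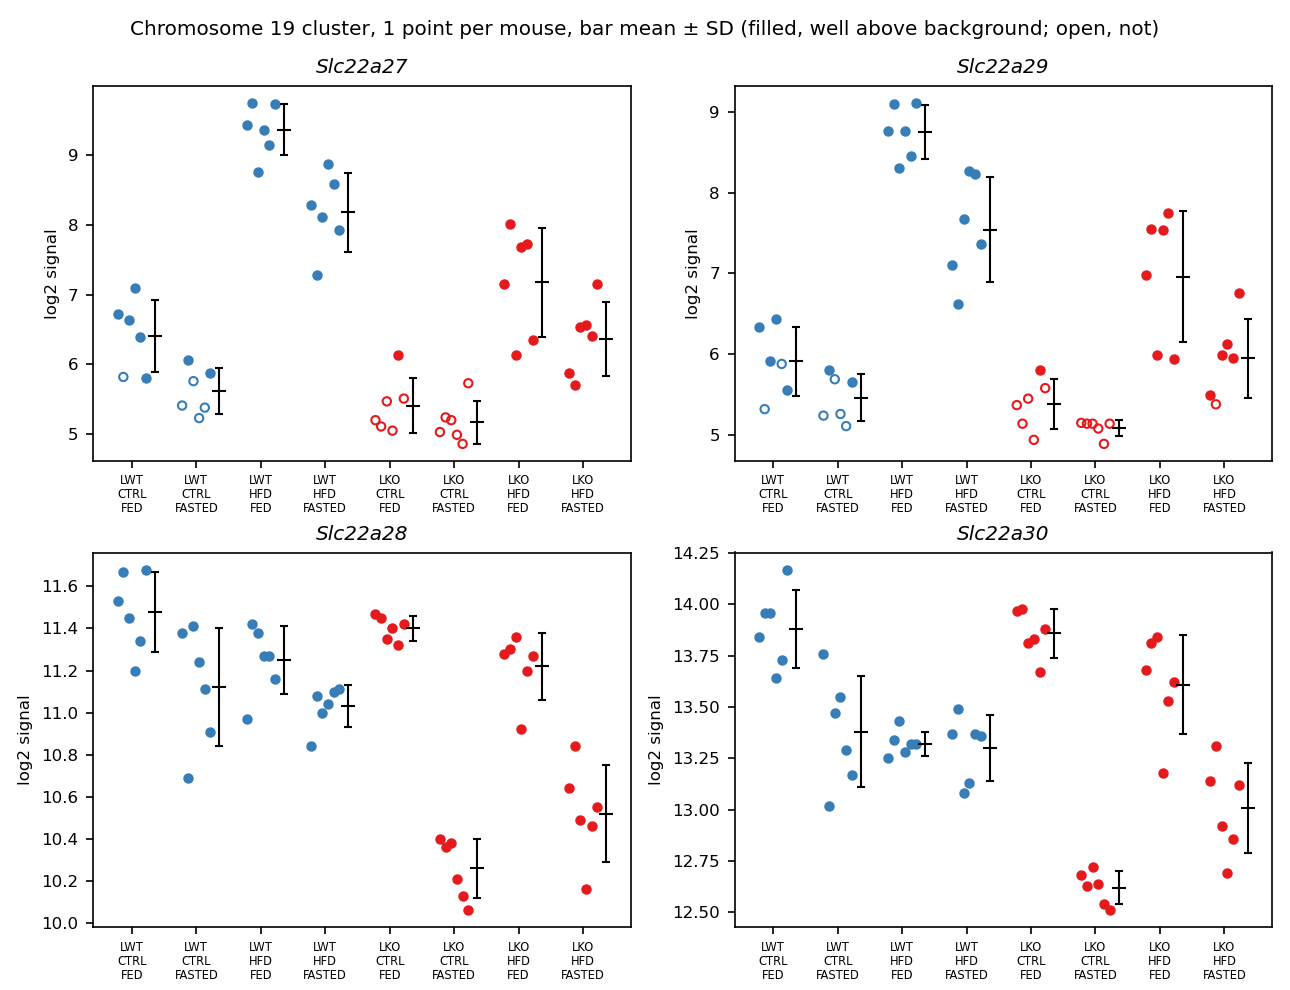
Log2 signal of Slc22a27, Slc22a29, Slc22a28 and Slc22a30 (vertical axes) in each mouse of the 8 groups (horizontal axis, LWT blue, LKO red), with the group mean and SD as a black bar and open circles for arrays not well above background. Slc22a27 and Slc22a29 peak in LWT_HFD_FED, at means of 9.37 and 8.75, whereas Slc22a28 and Slc22a30 are lowest in LKO_CTRL_FASTED, at 10.26 and 12.62.

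Among the organic cation carriers, Slc22a3 (OCT3), a carrier of monoamines, was lower in LKO mice in 3 of 4 settings, fed on CTRL diet (-0.71 ± 0.14, adjusted p = 0.000282), fasted on CTRL diet (-0.62 ± 0.14, adjusted p = 0.000642) and fasted on HFD (-0.96 ± 0.15, adjusted p = 1.88e-06). In the last, LKO mice, at 6.65, 6.82 and 6.93, lay below all LWT mice, at 7.44, 7.78 and 7.98. The fasted call on CTRL diet ended without any 1 of 4 mice (LWT_CTRL_FASTED replicates 1, 2 and 4 and LKO_CTRL_FASTED replicate 3), at -0.54 to -0.58.

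The other groups had Slc22a3 signals of 7.07, 7.68 and 7.94 in LWT_CTRL_FED, 6.79, 6.94 and 7.09 in LKO_CTRL_FED, 7.16, 7.63 and 8.05 in LWT_CTRL_FASTED, 6.75, 7.03 and 7.23 in LKO_CTRL_FASTED, 7.36, 7.75 and 8.47 in LWT_HFD_FED and 6.48, 7.57 and 7.79 in LKO_HFD_FED, with overlap between genotypes in each of these settings. In fed LKO mice HFD raised Slc22a3 (0.61 ± 0.15, adjusted p = 0.00421), unless LKO_CTRL_FED replicate 1 (0.58) or LKO_HFD_FED replicate 2 (0.53) or 4 (0.57) was left out. Fasting lowered it in LKO mice on HFD (-0.74 ± 0.15, adjusted p = 3e-04), and the diets differed in that response by -0.77 ± 0.21 (adjusted p = 0.0154), which did not pass without LKO_HFD_FED replicate 2 (-0.69). Slc47a1 (MATE1), which passes cations into bile, never passed the fold threshold, but was lower in LKO mice at an adjusted p under 0.05 in all 4 settings, at -0.34 to -0.51. Slc22a15 was lower in fed LKO mice on CTRL diet (-0.61 ± 0.20, adjusted p = 0.0235). It was -1.01 and -0.28 in washing batches 1 and 2 taken alone, and called in neither. Without LKO_CTRL_FED replicate 3 its value was -0.37, and the call was also lost without LKO_CTRL_FED replicate 6 or LWT_CTRL_FED replicate 1, 3, 4 or 5, at -0.53 to -0.58. The pseudogene Slc22a13b-ps was higher in LKO mice when fasted on HFD (0.67 ± 0.15, adjusted p = 0.000372).

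Of the Slco genes, Slco1a4 (OATP1A4), which takes up bile acids and cardiac glycosides, rose with fasting on CTRL diet and was higher in LKO mice. Its lowest, median and highest log2 signals were 9.27, 10.07 and 10.65 in LWT_CTRL_FED, 10.93, 11.37 and 11.70 in LWT_CTRL_FASTED, 10.63, 10.97 and 11.24 in LKO_CTRL_FED and 11.17, 11.89 and 12.28 in LKO_CTRL_FASTED. Fed LWT mice lay below all fasted LWT mice and overlapped with fed LKO mice. Fasting raised it by 1.33 ± 0.20 in LWT (SE, 2.52-fold, adjusted p = 7.61e-07) and 0.92 ± 0.20 in LKO mice (adjusted p = 0.000315). On HFD the values were 0.46 ± 0.19 (adjusted p = 0.0659) and 0.45 ± 0.22 (adjusted p = 0.124), and no interaction passed, the closest being the LWT difference between diets (-0.88 ± 0.27, adjusted p = 0.0775).

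On HFD its signals were 10.07, 10.74 and 11.05 in LWT_HFD_FED, 10.73, 11.11 and 11.67 in LWT_HFD_FASTED, 10.60, 11.67 and 11.91 in LKO_HFD_FED and 11.64, 11.92 and 12.41 in LKO_HFD_FASTED. Slco1a4 was higher in LKO than in LWT mice in the fed state on CTRL diet (0.90 ± 0.20, adjusted p = 0.000936) and HFD (0.79 ± 0.20, adjusted p = 0.00214) and after fasting on HFD (0.79 ± 0.21, adjusted p = 0.00265). After fasting on CTRL diet the value was 0.49 ± 0.19 (adjusted p = 0.0633). HFD raised it in fed LWT mice (0.68 ± 0.19, adjusted p = 0.00825), but not without LWT_CTRL_FED replicate 6 (0.50). Slco1a6, a neighbour on chromosome 6, stayed under the fold threshold, with fasting values of 0.37 (adjusted p = 0.000796) and 0.24 (adjusted p = 0.0231) in LWT mice.

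Slco2a1, the prostaglandin transporter, was the only member called higher in LKO mice, past both thresholds, in all 4 genotype comparisons, and HFD lowered it. Fed on CTRL diet, LWT mice had 10.78, 10.97 and 11.55 and LKO mice 11.55, 11.87 and 12.07. Fed on HFD, LWT mice had 10.05, 10.32 and 10.49 and LKO mice 10.87, 11.11 and 11.56. After fasting the values were 10.59, 11.04 and 11.29 in LWT_CTRL_FASTED, 11.71, 11.85 and 11.91 in LKO_CTRL_FASTED, 10.09, 10.42 and 10.93 in LWT_HFD_FASTED and 10.94, 11.17 and 11.66 in LKO_HFD_FASTED. The highest LWT and the lowest LKO mouse met at 11.55 in the fed CTRL setting, and the genotypes did not overlap in the other 3. They differed by 0.80 ± 0.12 (SE, adjusted p = 3.51e-06) and 0.77 ± 0.12 (adjusted p = 2.47e-06) in the fed state and 0.80 ± 0.12 (adjusted p = 1.17e-06) and 0.86 ± 0.12 (1.82-fold, adjusted p = 5.6e-07) after fasting, on CTRL diet and HFD respectively. HFD lowered it by 0.72 ± 0.11 in fed LWT (-0.72, adjusted p = 7.8e-06), 0.64 ± 0.12 in fasted LWT (-0.64, adjusted p = 0.000125) and 0.74 ± 0.13 in fed LKO mice (-0.74, adjusted p = 4.32e-05). In fasted LKO mice the value was -0.58 ± 0.12 (adjusted p = 0.00129), just under the fold threshold, and the fasted LWT call was lost without LWT_HFD_FASTED replicate 4 (-0.54).

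The probes of Slco2a1 disagreed. One of the 2 other kept probes called 3 of the 4 genotype differences (0.67 to 0.95) and the other called none (-0.21 to 0.26), and neither called a diet effect. Slco2a1 is also expressed by endothelial cells. All 6 endothelial markers were kept, with a summed log2 level of 13.54 to 14.25 over the LWT groups and 14.04 to 14.36 over the LKO groups. Lyve1 was lower in fed LKO mice on both diets and Clec4g higher in fasted LKO mice on HFD. The part of the markers in the result was not tested. Slco2b1 and Slco3a1, carriers of sulfated steroids and of prostaglandins and thyroid hormone, did not pass the fold threshold. Slco2b1 was lower in LKO mice at an adjusted p under 0.05 in all 4 settings (-0.19 to -0.50).

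**Figure D4:**
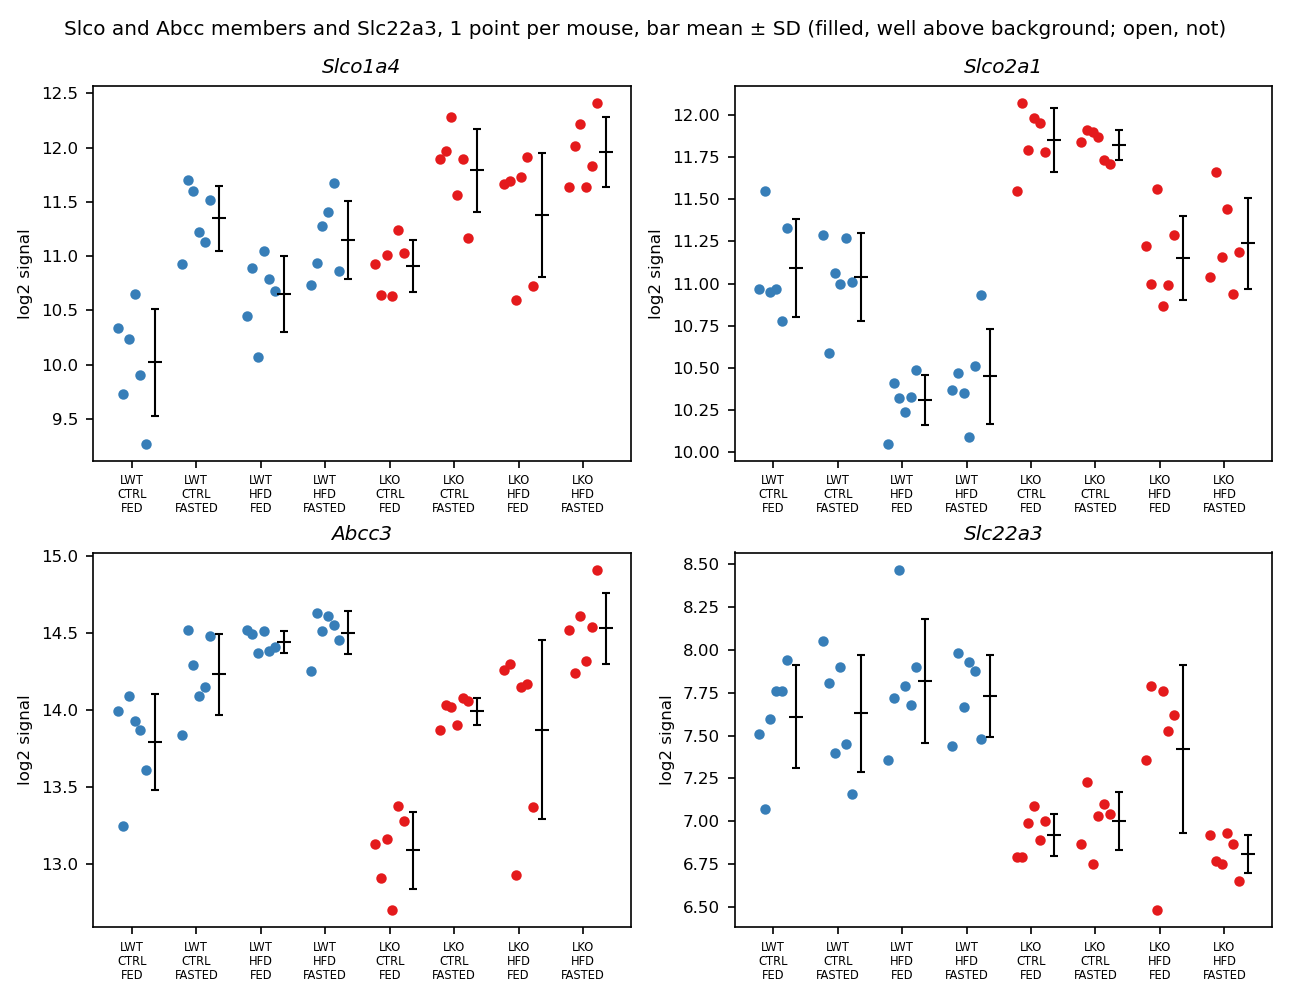
Log2 signal of Slco1a4, Slco2a1, Abcc3 and Slc22a3 (vertical axes) in each mouse of the 8 groups (horizontal axis, LWT blue, LKO red), with the group mean and SD as a black bar. Slco2a1 sits higher in LKO than in LWT mice in every setting, at group means of 11.15 to 11.85 against 10.31 to 11.09, and Abcc3 is lowest in LKO_CTRL_FED, at 13.09.

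In the Abcc family 3 of 9 measured members changed, beside 18 of 36 in the whole set. Abcc3 (MRP3), which exports glucuronides and bile acids to blood, was lowest in LKO_CTRL_FED, at 12.70, 13.14 and 13.38, against 13.25, 13.90 and 14.09 in LWT_CTRL_FED (-0.75 ± 0.13, adjusted p = 6.01e-05). From this low level it rose with fasting (0.87 ± 0.13, 1.83-fold, adjusted p = 1.21e-06, no overlap) and with HFD (0.90 ± 0.14, 1.87-fold, adjusted p = 1.25e-05) in LKO mice. Its other groups were 13.84, 14.22 and 14.52 in LWT_CTRL_FASTED, 14.37, 14.45 and 14.52 in LWT_HFD_FED, 14.25, 14.53 and 14.63 in LWT_HFD_FASTED, 13.87, 14.03 and 14.08 in LKO_CTRL_FASTED, 12.93, 14.16 and 14.30 in LKO_HFD_FED and 14.24, 14.53 and 14.91 in LKO_HFD_FASTED. HFD also raised it in fed LWT mice (0.60 ± 0.13, adjusted p = 0.000567), a call on the threshold that ended without LWT_HFD_FED replicate 4 (0.58), LWT_CTRL_FED replicate 2 (0.53) or LWT_CTRL_FED replicate 6 (0.54). Its second probe called 3 of these 4.

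Abcc9, the SUR2 subunit of ATP-sensitive potassium channels, was higher in fed LKO than in fed LWT mice on HFD, at 10.35, 10.69 and 10.76 against 9.87, 10.01 and 10.34 (0.60 ± 0.09, adjusted p = 1.95e-06), unless LWT_HFD_FED replicate 3 or 5 (0.58) or LKO_HFD_FED replicate 1 or 2 (0.57) was left out. Abcc9 is also expressed by pericytes. All 6 stellate markers were kept, with summed levels of 14.80 to 15.57 in LWT_HFD_FED and 15.02 to 15.36 in LKO_HFD_FED. Rgs5 was the marker of the list that was called there, higher in LKO mice, and its part was not tested. Abcc10 (MRP7) was higher in fasted LKO mice on HFD, at 10.44, 10.55 and 10.65 against 9.81, 9.93 and 10.15 (0.61 ± 0.06, adjusted p = 6.62e-10). Abcc2 (MRP2), which exports conjugates into bile, passed the adjusted p but not the fold in all 4 fasting comparisons, at 0.23 to 0.43.

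**Figure D5:**
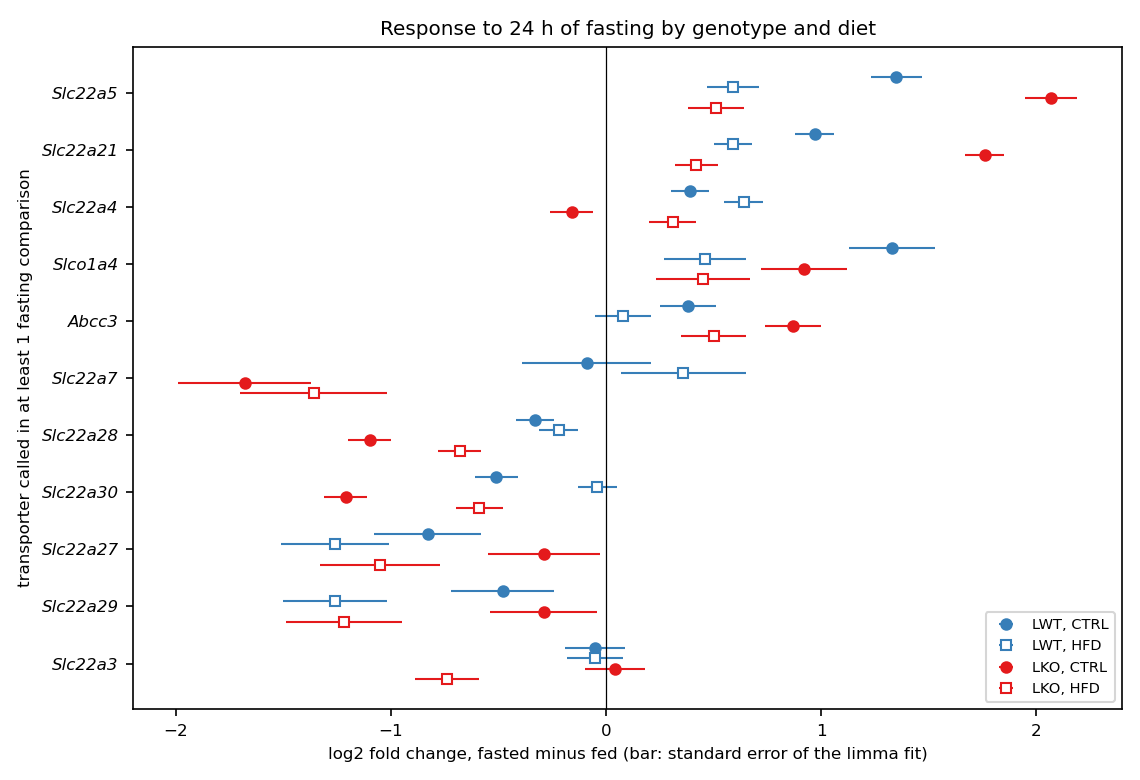
Log2 fold change, fasted minus fed (horizontal axis, bars are standard errors of the limma fit), of the 11 members called in at least 1 fasting comparison (vertical axis), by genotype (blue LWT, red LKO) and diet (circles CTRL, squares HFD). Slc22a5 and Slc22a21 reach 2.07 and 1.76 in LKO mice on CTRL diet, and Slc22a7 is at -1.68 and -1.36 in LKO mice but at -0.09 and 0.36 in LWT mice.

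The remaining 18 measured members were called in no comparison of 2 groups. They were Abcc1, Abcc2, Abcc4, Abcc5, Abcc6, Abcc12, Slc22a6, Slc22a8, Slc22a13, Slc22a16, Slc22a17, Slc22a18, Slc22a23, Slc47a1, Slco1a6, Slco2b1, Slco3a1 and Slco4a1. Their group means spanned 0.13 to 0.77 on the log2 scale. Of these, 11 passed the adjusted p alone at least once, and 7 did not: Abcc5, Slc22a6, Slc22a8, Slc22a13, Slc22a16, Slc22a17 and Slco4a1. The 15 members not kept were Abcc8, Slc22a2, Slc22a12, Slc22a14, Slc22a19, Slc22a20, Slc22a22, Slc47a2, Slco1a5, Slco1c1, Slco4c1, Slco5a1, Slco6b1, Slco6c1 and Slco6d1. Except for Slc47a2, on 23 arrays, and Slco1c1, on 20, their probes were well above background on at most 2 of 48 arrays.

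Beside the members, 17 other hepatic transporters were listed, of which Slc51a and Slc15a1 were not kept. With fasting, Slc51b, a bile acid exporter subunit, fell in all 4 comparisons, by 0.97, 0.90, 0.72 and 0.99 (log2 -0.97, -0.90, -0.72 and -0.99), but in LWT_CTRL_FASTED, LKO_CTRL_FASTED and LKO_HFD_FASTED its probe was above background on 1, 2 and 1 of 6 arrays, so the sizes there may be understated. With HFD, Abcb4, the canalicular phospholipid flippase, rose in fed mice of both genotypes (0.74 and 0.82). Slc10a2, the apical bile acid importer, was lower in LKO mice in all 4 genotype comparisons, at -1.08 to -1.87, and Abcg5 and Abcg8, the sterol exporters, were higher in LKO mice on HFD, at 0.70 to 1.16. Abcb11, the bile salt export pump, fell with fasting in LKO mice on CTRL diet (-1.11 ± 0.14, adjusted p = 1.91e-08), the setting in which Slc22a7, Slc22a28 and Slc22a30 fell. Other calls were made for Slc10a2 (-0.92 and -1.02 with fasting on CTRL diet in LWT and LKO mice, 0.82 with HFD in fasted LWT mice), for Abcb4 with fasting in LKO mice on CTRL diet (0.79) and for Slc51b with HFD in fasted LWT mice (0.65). Abcg5 (0.63) and Abcg8 (0.78) rose with fasting in LWT mice on HFD, as did Abcg8 in LKO mice (0.66). The drug exporter Abcb1a rose with HFD in fed LWT and in fasted LWT and LKO mice (0.76, 0.70 and 0.65), and was lower in LKO mice in all genotype settings but the fed CTRL one (-0.64 to -0.69). Abcg2, Slc16a1, Abcb11, Abcg5, Abcg8 and Slc51b had further calls in comparisons of 2 groups between -0.84 and 0.78. In genotype comparisons 0 to 2 of the 15 were higher and 2 to 5 lower, where 1.33% to 2.33% of all genes were higher and 1.9% to 4.23% lower.

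All 12 listed regulators were kept. Nr1i2 (PXR) rose with fasting on CTRL diet by 0.70 ± 0.07 in LWT and 0.80 ± 0.07 in LKO mice (adjusted p = 2.79e-10 and 6.29e-12), and Ppara by 0.66 ± 0.07 and 0.78 ± 0.07 (adjusted p = 8.46e-10 and 8.63e-12). On HFD the values were under the fold threshold, 0.58 in LWT and 0.47 in LKO mice for Nr1i2 (adjusted p = 1.46e-08 and 1.78e-05) and 0.31 and 0.39 for Ppara (adjusted p = 0.000386 and 0.000172). Nr0b2 rose with fasting in LWT mice on CTRL diet (0.75), Nfe2l2 (NRF2) fell with fasting in LWT mice on HFD (-0.89), Hnf4a rose with fasting in LKO mice on HFD (0.64), and Ahr rose with HFD in fed mice of both genotypes (0.69 and 0.72). In the 4 genotype comparisons limma called 0 of the 12 regulators, where 10.6% of all genes were called in at least 1. With only 12 genes, 0 is not read as a difference from that share. Of the 12, 6 had an unadjusted limma p under 0.05 in at least 1 genotype comparison. Past the adjusted p but under the fold threshold were Nfe2l2 (-0.55, adjusted p = 3.14e-06), Keap1 (0.19, 0.0472) and Rxra (0.18, 0.0356) in fed mice on HFD. So were Nr1h4 fed on CTRL diet (-0.27, 0.00588) and Hnf4a fasted on HFD (0.41, 0.000302). The fasting response of Nfe2l2 was called as differing between genotypes on HFD and between diets in LWT mice. Of 5 kept bile duct markers, Spp1 was lower in LKO mice in all 4 genotype comparisons and Krt19 in 3. Krt7, Epcam and Sox9 were called in none of them. The summed log2 levels, in which Spp1 was the brightest marker, were 10.50 to 12.40 over the LWT groups and 9.13 to 10.14 over the LKO groups. The part of these markers in the transporter values was not tested.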

How the data were processed

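Liver RNA of 48 male mice was labelled with Cy3 and hybridised to Agilent SurePrint G3 Mouse GE 8x60K arrays. Probe intensities were deposited as scanner output of Agilent Feature Extraction 10.10.1.1, not normalized. The authors also deposited a log2 table of 32437 probes, filtered (the filter is not given in the sources used here), corrected for washing batch and quantile normalized, which served as an alternative. Here log2 median signals had outlier spots removed (92 to 151 an array), were filtered (well above background on at least 5 of 6 arrays in a group), corrected for washing batch and quantile normalized. They were fitted over all 8 groups with limma 3.58.1 and array weights in R 4.3.3, with Benjamini-Hochberg adjustment over all kept probes, a scheme that follows the study's methods. A call required a fold change above 1.5 with an adjusted p no higher than 0.05. Each of the 2 washing batches and 6 slides held mice of all 8 groups. No spot outside the controls was saturated, and precision is set by having 6 arrays a group. The text names every member called in a comparison of 2 groups, with full statistics for the 3 largest changes in each and for each called interaction, names partner genes that were called, and gives the rest by counts. The values of 1 called member and 1 called partner gene are not reported here, though the counts include them. Members and lists were chosen with earlier results of these data known. Same-numbered replicates deviated together little on average (mean residual correlation 0.018, range -0.351 to 0.336, against a mean of -0.003 for different numbers). For 15 of the 48 arrays, the best-matching array of another group had the same number. Numbers were not taken as pairs, and a replicate block was run as an alternative. The fit was tested on simulated data. Alternatives covered background, scaling, filter, batch, slide, weights, probe choice, thresholds and leaving out each mouse. Other platforms, proteins and exon positions were not analysed here.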

Additional observations from a re-analysis of the deposited data

Results flagged for a closer look

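In 7 of 144 groups of 6 mice (18 changed members in 8 groups) 1 mouse lay apart from the others by Dixon's test at its 95% critical value, and chance alone gives about 1 in 20. The mice came from 5 arrays. Abcc9 was 10.35 in LKO_HFD_FED replicate 4, with the nearest mouse at 10.64. Slc22a28 was 10.92 in the same mouse, with the nearest at 11.20. Slc22a3 was 6.48 in LKO_HFD_FED replicate 3, with the nearest at 7.36, and Slc22a13b-ps was 8.06 in that mouse, with the nearest at 7.21. This array also had the lowest weight, 0.35. Slc22a13b-ps was 7.51 in LWT_HFD_FASTED replicate 6, with the nearest at 7.09. Slc22a21 was 7.51 in LWT_HFD_FED replicate 3, with the nearest at 7.21. Slc22a29 was 4.89 in LKO_CTRL_FASTED replicate 5, with the nearest at 5.08, where the probe was not well above background.

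The other results singled out are responses with a limma interaction past the threshold. Between genotypes, the fasting response on CTRL diet differed by 0.72 for Slc22a5, 0.79 for Slc22a21, -0.77 for Slc22a28, -0.69 for Slc22a30 and -1.59 for Slc22a7 (LKO minus LWT, log2), and on HFD by -1.71 for Slc22a7. The fitted values for the diet response of fasted mice, -1.36 for Slc22a27 and -1.27 for Slc22a29, rest on LKO_CTRL_FASTED, where 0 of 6 arrays were above background, so no difference of responses can be read from them. Between diets (HFD minus CTRL), the fasting response differed by -0.76 for Slc22a5 in LWT mice, and in LKO mice by -1.57 for Slc22a5, -1.34 for Slc22a21, -0.77 for Slc22a3 and 0.62 for Slc22a30.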

How the results depend on the processing

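None of the 86 calls on members changed sign under the alternatives run, 17 were never lost, and all kept their sign in each washing batch, but 23 lost their call in batch 1 alone and 41 in batch 2 alone, each with fewer mice. The members called for fasting, HFD, genotype and an interaction, 11, 11, 16 and 8, became 25, 21, 28 and 14 without a fold threshold. With a fold over 2 they were 8, 2, 3 and 5. The interaction count was 5 without the filter on dim probes, 5 without array weights and 3 in washing batch 2 alone. Leaving out each mouse in turn gave 11 to 12, 9 to 12, 15 to 17 and 6 to 9. The replicate block gave 11, 10, 16 and 8, ending 4 of the 86 calls, and the deposited values gave 11, 11, 16 and 8. The cause of these differences was not tested. Near background, sizes depended on the processing: the HFD change of Slc22a27 in fasted LKO mice ranged from 0.76 with normexp to 3.36 with the background-subtracted signal. The latter also differed in scaling and batch correction.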
